A study of Caenorhabditis elegans with 2 samples.

Results

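Transfer RNA (tRNA) genes on the X chromosome of Caenorhabditis elegans were described here for their occupancy by ZTF-25, which its name places among the zinc finger transcription factors. They were all 276 genes annotated as tRNA genes on X in the Ensembl WBcel235 (ce11) annotation, out of 612 on the 6 nuclear chromosomes, whether or not a peak lay at them. ChIP-seq, the sequencing of DNA precipitated with a chromatin protein, used an anti-GFP antibody on whole young adult worms of strain RW12287 at 63 hours. In this strain the animals' own ztf-25 locus carries a TY1::EGFP::3xFLAG tag placed by CRISPR, and all tissues enter 1 sample. The worms were synchronised by starvation as L1 larvae. The 2 samples are biological replicates 1 and 2 of this 1 group, so no condition was compared with another, and untagged or GFP-only worms were not analysed here. The deposited files are peak lists without read counts, so the depth of the libraries is unknown. The signal of a peak is the authors' value, on a scale that is not stated.

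RNA polymerase III transcribes tRNA genes. The promoter lies inside the gene, as an A box near the 5′ end and a B box near the 3′ end, which the factor TFIIIC binds before it brings TFIIIB to the DNA just upstream of the gene. Transcription stops at a run of T in the strand of the gene. Worm tRNA genes are spread over all chromosomes, and many stand in introns of protein-coding genes or exist as exact copies of each other. A tRNA isotype is the amino acid that the tRNA carries.

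A tRNA gene is called marked when the conservative list of the series has a summit, the highest point of a peak, inside the gene or within 200 bp of either end. That list keeps peaks whose rank repeats between both libraries. The repeat is scored by the irreproducible discovery rate (IDR), where a low value means a rank that repeats. By this rule 153 of the 276 X genes were marked, through 142 distinct summits, and 123 were not. All nuclear tRNA genes together were marked at 51.3%, and all annotated nuclear genes at 3.07%.

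The genes below show a contrast within sets of exact copies, where some copies had strong peaks and others weak ones. Shown are the copies with the highest and the lowest signal in 4 of the largest sets of identical X genes, read from RefSeq WBcel235. Copies without a summit in the ranked comparison of both libraries were left out of this choice. Each sequence runs 5′ to 3′ on the strand of the gene, from 30 bases before the gene to 12 bases after it. The first run in capitals is the match to GTTCNANNC, the core of the B box, and the second is the first TTTT after the gene.
F46G11.t2: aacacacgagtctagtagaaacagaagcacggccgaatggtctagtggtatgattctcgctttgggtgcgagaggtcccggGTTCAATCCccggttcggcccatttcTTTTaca
Y7A5A.t2: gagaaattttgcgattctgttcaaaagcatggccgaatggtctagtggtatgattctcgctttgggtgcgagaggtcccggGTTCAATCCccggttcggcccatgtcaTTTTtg
C18A11.t2: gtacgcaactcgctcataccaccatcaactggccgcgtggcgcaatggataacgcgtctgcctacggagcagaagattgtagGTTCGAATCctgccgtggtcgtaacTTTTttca
T06H11.t3: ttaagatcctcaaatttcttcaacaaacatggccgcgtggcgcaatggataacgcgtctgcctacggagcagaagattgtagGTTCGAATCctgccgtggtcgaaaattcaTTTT
R04A9.t1: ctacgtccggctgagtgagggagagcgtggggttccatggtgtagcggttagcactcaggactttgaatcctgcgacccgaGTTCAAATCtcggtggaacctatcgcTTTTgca
H08J11.t4: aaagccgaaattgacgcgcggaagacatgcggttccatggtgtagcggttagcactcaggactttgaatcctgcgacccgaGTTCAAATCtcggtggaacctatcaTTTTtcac
C04E7.t1: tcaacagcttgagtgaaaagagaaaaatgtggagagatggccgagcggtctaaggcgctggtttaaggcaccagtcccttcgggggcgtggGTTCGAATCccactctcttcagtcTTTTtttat
C48C5.t4: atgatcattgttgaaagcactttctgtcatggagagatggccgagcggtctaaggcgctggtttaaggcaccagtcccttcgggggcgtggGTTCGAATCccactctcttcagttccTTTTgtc

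The 2 genes of each set have the same bases from the first to the last base of the tRNA gene, and differ in the flanks. Their places are chrX:5801211-5801282 (minus strand) for F46G11.t2, chrX:15796855-15796926 (plus) for Y7A5A.t2, chrX:8036685-8036757 (minus) for C18A11.t2 and chrX:10132971-10133043 (minus) for T06H11.t3. Those of the other two sets are chrX:410391-410462 (plus) for R04A9.t1, chrX:9091097-9091168 (minus) for H08J11.t4, chrX:353255-353336 (minus) for C04E7.t1 and chrX:8955920-8956001 (minus) for C48C5.t4.

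The proline gene F46G11.t2 had a signal of 139.6 in the ranked comparison of both libraries, with 88.6 in replicate 1 and 51.7 in replicate 2. Its copy Y7A5A.t2 had 48.7, with 30.6 in replicate 1 and no summit in the ranked list of replicate 2. Of the 13 identical proline genes on X, 5 were marked and 12 had a ranked summit, all with signals within this range. Among the marked ones, F46G11.t2 and its neighbour F46G11.t1 shared 1 summit. The arginine set has 10 copies, all on X, and 9 were marked. Its strongest copy, C18A11.t2, had 184.9, with 106 in replicate 1 and 81.3 in replicate 2.

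The weakest arginine copy, T06H11.t3, was marked at a signal of 9.14, but by a summit 149 bp from its 5′ end, beyond its 3′ end, and neither replicate's ranked list had a summit within its window. Its neighbour and copy T06H11.t2, in the same intron of unc-58, a potassium channel gene, had 88.7, with 41.7 in replicate 1 and 50.5 in replicate 2. The ranked list gives the same pair of library values, 41.7 and 50.5, for both peaks. Such repeats of both library values from another peak touched 8 X genes, 3 of them marked. The next lowest signal at a marked X gene was 59.8, at the serine gene F22F1.t2. That gene had 42.6 in replicate 2 and no summit in the ranked list of replicate 1. The ranked comparison gives 47.3 as a library value for both F22F1.t2 and its neighbour F22F1.t3.

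Of the 9 identical glutamine genes on X, 4 were marked, against none of the 6 autosomal copies of the same sequence. R04A9.t1 had 144.5, with 84.9 in replicate 1 and 53.2 in replicate 2. H08J11.t4 had 30.7, with no summit in replicate 1 and 13.6 in replicate 2. The peak of H08J11.t4, at an IDR of 0.438, was also that of its neighbour H08J11.t2. The 9 identical leucine genes are on X alone, and 5 were marked and 8 had a ranked summit. C04E7.t1 had 142, with 85.5 in replicate 1 and 59.3 in replicate 2, and C48C5.t4 had 35.4, with 25.5 in replicate 1 and 22.3 in replicate 2. The copies were picked by the pooled signal of these same libraries, so their replicate values describe them and add no check.

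The same held across the repeated genes of X. Of 20 sets with 5 or more identical copies on X, which hold 162 genes, all 20 had both marked and unmarked members. Both kinds were also mixed over all X genes, 55.4% of which were marked, with ranked signals from 7.41 to 237. Whether copies vary less or more than other X genes was not tested. Among copies with a ranked summit, the highest signal within a set was a median of 3.41 times the lowest, from 1.85 to 20.2 times. The 1.85 is that of the histidine set, where only 4 of 8 X copies had a ranked summit. The 20.2 rests on T06H11.t3. Without that gene, a choice made after seeing the data, the arginine set spans 3.36 times. The sets then have a median of 3.37 and a highest value of 17.2. The 17.2 is that of the glycine set, from 237 at M02F4.t1 to 13.8 at R04E5.t2, whose peak has an IDR of 0.761. In the largest glutamate set, 7 of 12 X copies were marked. M02F4.t2 had 237, with 130.2 in replicate 1 and 107 in replicate 2, from a summit inside its glycine neighbour M02F4.t1. The next highest copy, F52E10.t5, had 125. At the low end F52E10.t4 had 35.8, with 26.2 in replicate 1 and no summit in replicate 2. In the lysine set 9 of 10 X copies were marked, and the signal ranged from 70.1 at M163.t2 to 225 at W03G11.t1. The histidine set had 3 of 8 marked on X and 3 of 3 on the autosomes. Identical genes share the bases of the gene and differ here in where they lie and in their flanks. In 2 X genes the flanks were also identical for 100 bp. How the authors treated reads that match several places is not given in the sources used here, and its part in the differences between copies was not tested.

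**Figure D1:**
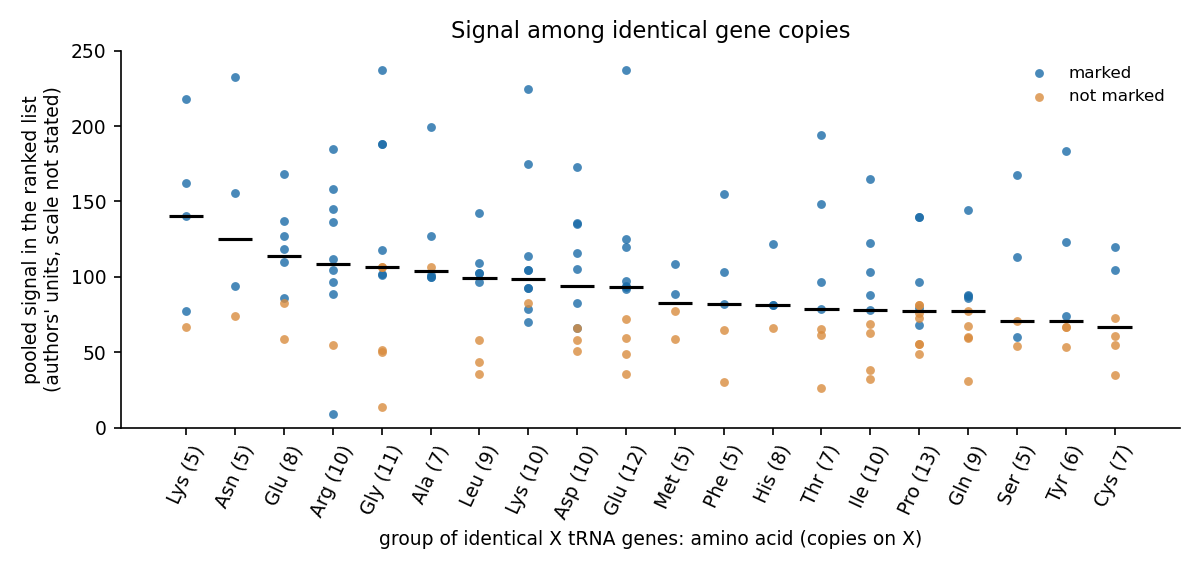
Pooled signal in the ranked list (y axis, authors' units of unstated scale) at each X tRNA gene of the 20 sets with 5 or more identical X copies (x axis, amino acid and number of copies). Points are genes, blue where marked and orange where not, lines are set medians, and genes without a ranked summit are left out; every set holds points of both colours, and the lone low blue point of the arginine set is T06H11.t3 at 9.14.

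Among all X genes, the marked ones had a median signal of 112 (quartiles 94.8 and 145, range 9.14 to 237). The 161 marked autosomal genes had a median of 103 (quartiles 92.2 and 124, range 60.1 to 244). Of the 20 marked tRNA genes with the highest signal in the genome, 14 were on X and 6 on the autosomes. These are counts of genes, so a summit shared by neighbours counts for each. Among the X genes of these 20 this holds for M02F4.t1 and M02F4.t2, F15G9.t1 and F15G9.t2, and T10B10.t1 and T10B10.t2. Of the first 50, 33 were on X and 17 on the autosomes. The X chromosome held 48.7% of all marked tRNA genes.

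The strongest summit on X, at 237, served both M02F4.t1 and M02F4.t2, a glycine and a glutamate gene that point away from each other. It gave 130.2 in replicate 1 and 107 in replicate 2 and lay inside the glycine gene M02F4.t1 (chrX:3036164-3036235, plus), 126 bp upstream of the glutamate gene (chrX:3035976-3036047, minus). Next came the asparagine gene F41D9.t3 (chrX:8404499-8404571, plus) in an intron of sulp-3, with 233 pooled, 96.4 in replicate 1 and 135 in replicate 2. This gene was the exception among the 10 strongest, since replicate 2 was the higher one there.

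The valine gene R04D3.t2 (chrX:13307034-13307106, plus) had 230.1 pooled, 125 in replicate 1 and 103 in replicate 2. The lysine gene W03G11.t1 (chrX:12106147-12106219, minus) had 225 pooled, 135 in replicate 1 and 78.1 in replicate 2, and the lysine gene C33G3.t2 (chrX:14063946-14064018, minus) had 218, 131 and 89.6. All 10 strongest genes were also in the thresholded list of each replicate alone.

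The others of these 10 were the alanine genes F15G9.t1 and F15G9.t2, the threonine gene ZK563.t1 and the glycine gene T10B10.t2. The alanine pair stands in an intron of him-4, the gene of the matrix protein hemicentin, and shares 1 summit of 199 that lies between them, with 127 in replicate 1 and 72.0 in replicate 2. ZK563.t1 had 194 pooled, 123 in replicate 1 and 61.2 in replicate 2. T10B10.t2 had 188 pooled, 103 in replicate 1 and 81.8 in replicate 2, from a summit that T10B10.t1 shares at the same signal.

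At the other end of the marked genes, after T06H11.t3 and F22F1.t2, stood the aspartate gene F22F1.t9 with 65.9, the proline gene ZK678.t3 with 68.0 and the lysine gene M163.t2 with 70.1. In replicate 1 F22F1.t9 had 40.5, ZK678.t3 had 55.7 and M163.t2 had 35.2. In replicate 2 they had 39.7, 37.6 and 48.4 in the same order. None of these genes was in the thresholded list of either replicate alone.

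Unmarked did not mean without signal. The whole ranked list holds a summit at 255 X genes (92.4%) and 308 autosomal ones (91.7%), and at 92% of all nuclear tRNA genes, since it also keeps peaks that do not repeat. The 102 unmarked X genes with such a summit had a median signal of 59.4 (range 7.41 to 126). The remaining 21 X genes had none, although 7 of them had a summit in the ranked list of 1 or both replicates. The strongest unmarked gene was the glutamine gene D1009.t1 (chrX:8925641-8925712, plus) at 126, with 99.4 in replicate 1 and 24.7 in replicate 2. The alanine gene T08A9.t1 had 107 pooled, 64.2 in replicate 1 and 28.3 in replicate 2, the glycine pair ZK154.t3 and ZK154.t4 shared 106, and the valine gene F59C12.t1 had 95.3, with 70.0 in replicate 1 and 26.8 in replicate 2. In these genes replicate 1 was high and replicate 2 low, apart from ZK154.t4, which had no summit of its own in replicate 1.

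The limit between marked and unmarked is an IDR of 0.01. The highest IDR at a marked X gene was 0.00956, at the tryptophan gene sup-7, and the lowest at an unmarked one was 0.0101. From an IDR of 0.005 to 0.02 there were 25 X genes, 11 of them marked. The tryptophan genes of X, chosen for description after their values were seen, show how close these can lie. Among them sup-7, sup-21, sup-28 and sup-33 are identical copies known from mutations that suppress amber stop codons. The gene sup-7 (chrX:6371378-6371449, plus) was marked at 91.2, with 66.4 in replicate 1 and 28.7 in replicate 2. The unmarked sup-33 (chrX:8945160-8945231, minus), with an IDR of 0.0103, had 78.3, with 35.5 in replicate 1 and 39.6 in replicate 2. Then sup-28 had 53.7, with 24.7 in replicate 1 and 31.7 in replicate 2, and sup-21 had no ranked summit.

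In each replicate's own thresholded list, 99 X genes had a summit in replicate 1 (35.9%, against 32.4% of all tRNA genes) and 62 in replicate 2 (22.5%, against 17.3%). Of the 153 marked genes, 47 were in both of these lists, 42 in that of replicate 1 alone, 13 in that of replicate 2 alone and 51 in neither. By signal in the ranked lists, the marked genes had a median of 66.4 in replicate 1 (n = 149 genes, range 35.2 to 135) and 50.5 in replicate 2 (n = 149, range 28.7 to 135). The unmarked had 35.8 in replicate 1 (n = 89) and 26.1 in replicate 2 (n = 81). Marked and unmarked genes overlapped in both replicates. The marks were made from these same libraries, so the difference between them is a description.

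Of the 215 X genes with a value in both replicates, 174 were higher in replicate 1, and the median ratio of replicate 1 to replicate 2 was 1.30. Across these genes, which share 1 pair of libraries and are not independent replicates, Pearson's r was 0.688 and Spearman's rho 0.645.

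**Figure D2:**
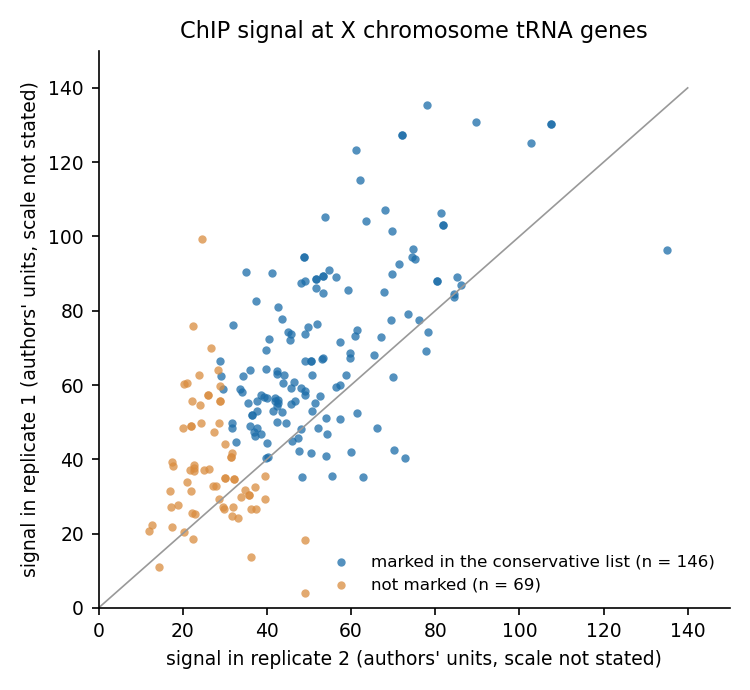
Signal at X tRNA genes in replicate 1 (y axis) and replicate 2 (x axis), both in the authors' units of unstated scale, for the 215 genes with a summit in both ranked lists. Blue points are marked genes and orange ones unmarked, and the line shows equal values; 174 of the points lie above it, and the strongest unmarked point is D1009.t1 at 99.4 in replicate 1 and 24.7 in replicate 2.

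Set beside the other chromosomes, 55.4% of the X genes were marked, against 161 of 336 autosomal ones (47.9%), a difference of 7.52 percentage points. By chromosome the autosomal shares were 57.6% on I (n = 66 genes), 40.4% on II (n = 57), 50% on III (n = 64), 49.3% on IV (n = 71) and 42.3% on V (n = 78), so that I stood above X and the others below it. In replicate 1 alone the shares were 35.9% on X and 29.5% on the autosomes, and in replicate 2 alone 22.5% and 13.1%. The difference kept its sign in both replicates, at 6.41 and 9.37 points. Genes are not replicates and there is 1 group of samples, so this difference was not tested. X carries 45.1% of nuclear tRNA genes on 17.7% of the nuclear sequence.

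The difference was small among sequences found on both sides. Of the X genes whose exact sequence also occurs on an autosome, 107 of 185 were marked (57.8%), against 124 of 223 of the autosomal copies (55.6%). Of the 24 such sequences with at least 3 genes on each side, X had the higher share in 15 and the lower in 9. Among genes whose sequence is on X alone, 46 of 91 were marked (50.5%), and among those on autosomes alone 37 of 113 (32.7%). Counted by distinct sequence, marked where any copy is, the shares were 63.2% on X and 47.45% on the autosomes.

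By isotype, X had the higher share in 13 of the 20 amino acids, the lower in 6 and the same in 1. The alanine genes stood highest on X, with 10 of 13 marked, against 6 of 21 on the autosomes. Aspartate followed with 9 of 12 on X against 11 of 15 on autosomes, and lysine with 13 of 18 against 20 of 28. Threonine genes had 10 of 14 on X against 8 of 20 on autosomes, and valine genes 10 of 14 against 7 of 17. At the low end on X were methionine genes with 2 of 8, against 5 of 12 on autosomes, cysteine genes with 2 of 7 against 5 of 6, and glutamine genes with 5 of 15 against 1 of 12. Marked X genes had their highest medians in asparagine, with 156 over 3 genes, and in threonine, with 138 over 10 genes.

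**Figure D3:**
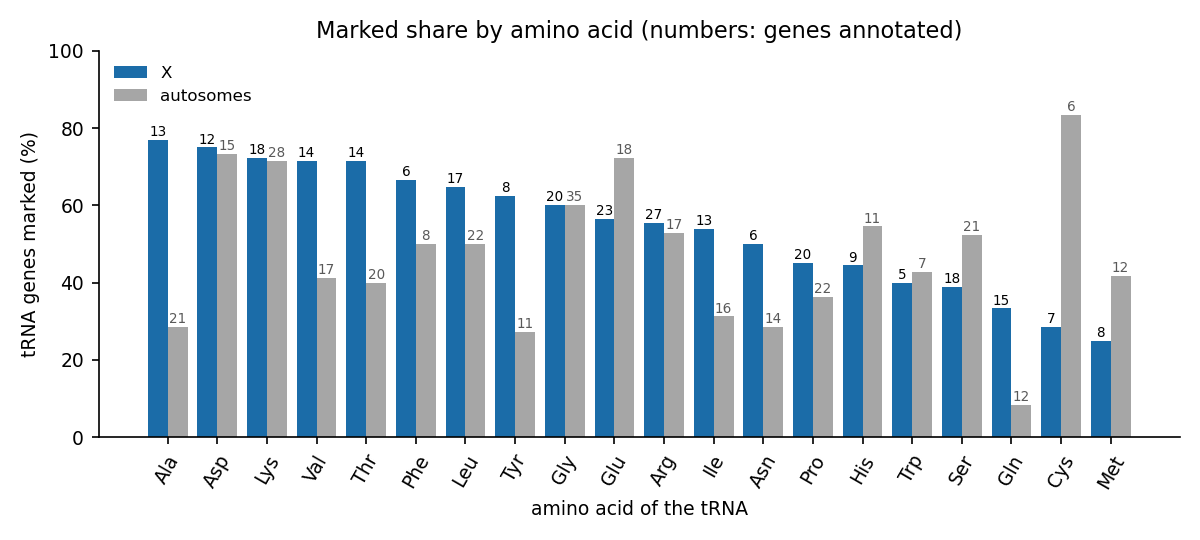
Share of tRNA genes marked (y axis, percent) for each amino acid (x axis), for X (blue, left) and autosomes (grey, right), with the number of annotated genes above each bar. X ranges from 76.9% for alanine to 2 of 8 genes for methionine, and cysteine is the one with the largest lead for the autosomes, at 28.6% on X and 83.3% on the autosomes.

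No isotype was given for 3 X genes, and 0 of these 3 were marked. They are shown, chosen after their values were seen, because the annotation assigns them no amino acid, with the same flanks and capitals as above.
C28G1.t5: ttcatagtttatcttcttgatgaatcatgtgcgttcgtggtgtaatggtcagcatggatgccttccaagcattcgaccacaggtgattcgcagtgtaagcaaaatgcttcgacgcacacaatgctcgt
F47E1.t3: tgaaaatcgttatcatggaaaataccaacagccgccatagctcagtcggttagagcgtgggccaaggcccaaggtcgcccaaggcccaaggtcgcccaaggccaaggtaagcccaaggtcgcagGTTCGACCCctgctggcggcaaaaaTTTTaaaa
K02D3.t1: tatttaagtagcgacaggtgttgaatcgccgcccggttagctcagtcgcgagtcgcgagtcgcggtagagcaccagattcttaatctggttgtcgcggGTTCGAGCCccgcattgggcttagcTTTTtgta

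C28G1.t5 (chrX:8838602-8838687, plus) has neither run, and F47E1.t3 (chrX:9059280-9059394, minus) holds short repeats. F47E1.t3 had a ranked signal of 18.4, and the other two had no summit in any ranked list. The 2 autosomal genes without an isotype were unmarked as well.

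The B box was otherwise nearly constant, so it separated few genes. GTTCNANNC, searched on both strands, was present in 268 of 276 X genes (97.1%) and 320 of 336 autosomal ones (95.2%), against 2.64% of windows of 72 bp tiled over X. Of the X genes with it 151 were marked (56.3%), and of the 8 without it 2 were, through 1 peak. The stricter form GGTTCGA, which overlaps the first in sequence, was in 177 X genes, of which 104 were marked (58.8%), against 49 of the 99 others (49.5%). TTTT began within 40 bp after the gene in 273 X genes, at a median of 5 bases, while 43.3% of 40 bp windows tiled over the plus strand of X hold it. A match is a run of letters and was not read as bound.

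Summits lay on the gene itself. At marked X genes the summit was a median of 21 bp past the 5′ end (quartiles 7 and 40), as at autosomal ones (median 21, quartiles 4 and 38). It fell inside the gene at 118 X genes (77.1%), upstream at 26 and downstream at 9. On the autosomes it was inside at 118 (73.3%), upstream at 32 and downstream at 11. The median X gene is 72 bp long, so the median summit lay nearer to its 5′ end. The peaks themselves were mostly 276 bp wide, wider than the gene, so the summit position does not tell the A box from the B box. Of the 142 summits, 11 served 2 genes each. Among the 131 X genes with a summit of their own, 110 had it inside the gene (84.0%), at a median of 23 bp.

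**Figure D4:**
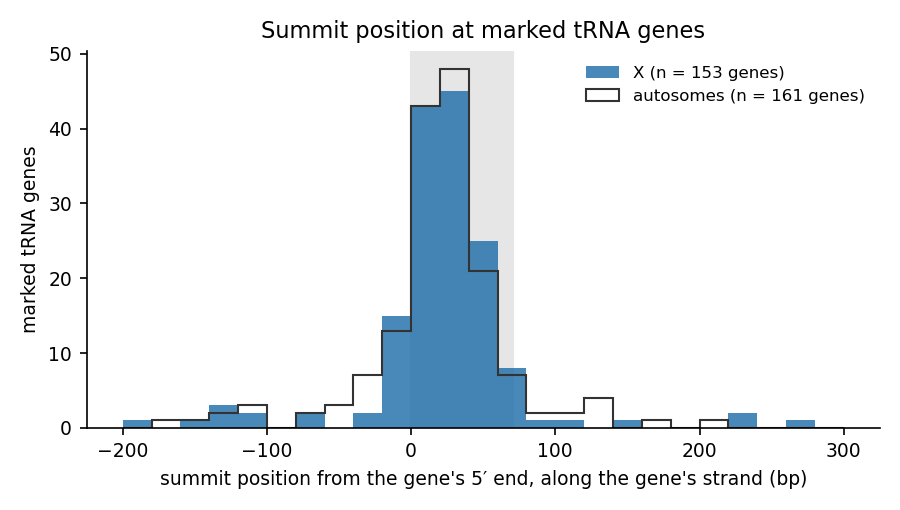
Number of marked tRNA genes (y axis) by position of the summit from the gene's 5′ end along its strand (x axis, bp, bins of 20 bp), for X (blue, filled) and autosomes (black outline). The grey band is the median gene body of 72 bp, and both distributions centre in it, at a median of 21 bp.

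With at most 5000 bp between neighbours, 179 X genes lay in 67 clusters and 97 stood alone. The split depends on this gap, since with at most 1000 bp 135 lay in clusters and 141 stood alone. Of the clusters 41 were pairs, of which 21 had both genes marked, 10 had 1 and 10 had none. The 52 marked genes of these pairs had 43 distinct summits, so in some pairs both marks rest on 1 summit. Clusters were often of 1 kind, with 40 of the 67 holding 1 isotype and 20 holding 1 sequence. Pairs that pointed away from each other had 17 of 28 genes marked, pairs on the same strand 17 of 28, and pairs that faced each other 18 of 26. The median gap between the genes was 158.5, 911.5 and 1280 bp in that order. Among pairs that pointed away, both genes shared 1 summit at M02F4.t2, F46G11.t2, C28G1.t3, F54F7.t2, C53C7.t2 and T10B10.t2. On the same strand this held for F15G9.t1, and among pairs that faced each other for rte-5 and C16H3.t1.

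On X, larger clusters had a lower share of marked genes. Of the lone X genes 65 of 97 were marked (67.0%), of the pairs 52 of 82 (63.4%), of clusters of 3 to 4 genes 28 of 67 (41.8%), and of those with 5 or more genes 8 of 30 (26.7%). Since neighbours can share 1 summit, these marks came from 65, 43, 27 and 7 distinct summits in that order. The median ranked signal was 102, 103, 77.7 and 60.5 in that order. On the autosomes lone genes had 85 of 190 marked (44.7%), pairs 43 of 84 (51.2%), clusters of 3 to 4 genes 29 of 57 (50.9%) and larger ones 4 of 5. The autosomal marks came from 85, 34, 25 and 4 distinct summits. The lead of X over the autosomes was thus seen among lone genes and pairs and was turned round in larger clusters. By distance to the nearest tRNA gene, X genes had 26 of 65 marked within 200 bp, where 1 summit can mark both genes, and 30 of 70 (42.9%) from there to 1000 bp. Between 1000 and 5000 bp 32 of 44 were marked (72.7%), above the 65 of 97 beyond 5000 bp. The autosomal genes had 26 of 44 (59.1%), 31 of 57 (54.4%), 19 of 45 (42.2%) and 85 of 190 (44.7%) marked over the same distances. On X the low shares were thus those of genes within 1000 bp of another, and on the autosomes the shares there were the higher ones. Whether the peak caller separates neighbouring genes equally well was not tested.

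**Figure D5:**
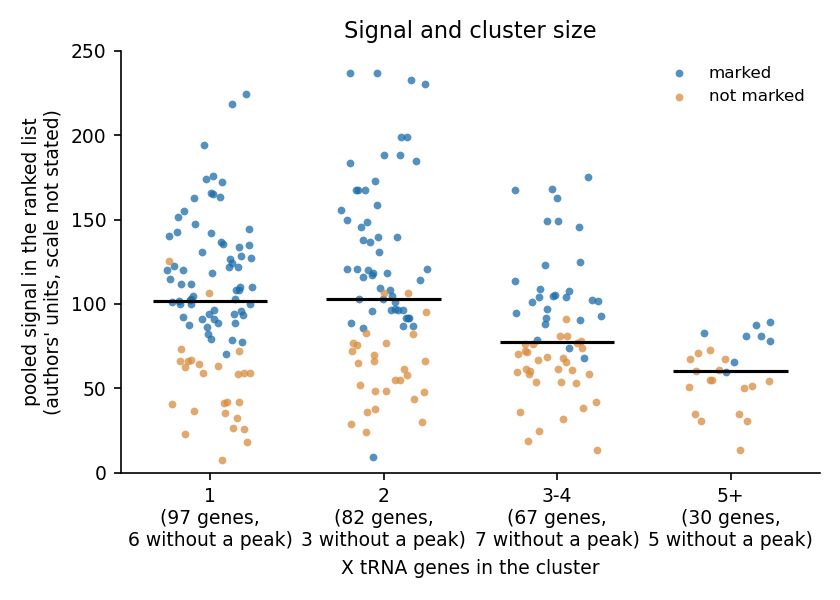
Pooled signal in the ranked list (y axis, authors' units of unstated scale) at X tRNA genes by the number of tRNA genes in their cluster (x axis). Blue points are marked genes, orange ones unmarked, and lines are medians over genes with a ranked summit, at 102, 103, 77.7 and 60.5 from lone genes to clusters of 5 or more.

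There were 5 clusters of 5 or more genes. The largest, of 9 genes at chrX:8149156-8156707, holds aspartate, serine, methionine and isoleucine genes, and 5 were marked. Its strongest, the aspartate gene F22F1.t5, had 89.3, with 41.9 in replicate 1 and 59.9 in replicate 2. The aspartate gene F22F1.t1 had 82.6, with 62.5 in replicate 1 and 29.1 in replicate 2. F22F1.t3, an identical copy of F22F1.t1, was unmarked at 51.0, with 47.3 in replicate 1 and no summit in replicate 2.

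The next cluster, at chrX:14135045-14137010, is an array of 6 identical histidine genes on alternating strands. One summit of 81.3 inside F28H6.t2 marked that gene and its neighbour F28H6.t7, with 46.2 in replicate 1 and 37.1 in replicate 2 at F28H6.t2. The other four genes had no summit in the ranked comparison, and of them F28H6.t5 alone had one in a replicate, 35.8 in replicate 1.

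In the other three of these clusters 1 of 15 genes was marked. The cluster in an intron of K01A12.3, with cysteine and arginine genes, had 0 of 5 marked and signals of 34.6 to 72.7. That of glycine and cysteine genes from R04E5.t5 to R04E5.t2 also had 0 of 5, and its lowest, R04E5.t2, had 13.8, with 11.1 in replicate 1 and 14.3 in replicate 2. The 5 glutamine genes in ajm-1, which encodes an apical junction protein, had 1 marked, H08J11.t3, at 87.7, with 58.2 in replicate 1 and 34.0 in replicate 2.

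These 3 clusters and the largest one all lie between 8 and 10 Mb, where X has its densest stretch of tRNA genes. In that stretch 29 of 71 genes were marked (40.8%), and in the 16 genes from 2 to 4 Mb 15 were (93.8%). From 10 to 12 Mb 19 of 23 were marked, and in the first 2 Mb 6 of 17. The other segments of 2 Mb had 12 of 18 marked from 4 Mb, 9 of 18 from 6 Mb and 30 of 45 from 12 Mb. From 14 Mb it was 15 of 34 (44.1%), and from 16 Mb 18 of 34. Within the dense stretch, 3 of 11 lone genes were marked, 13 of 20 in pairs, 7 of 16 in clusters of 3 to 4 and 6 of 24 in larger ones. Elsewhere on X, 62 of 86 lone genes (72.1%) were marked, 39 of 62 in pairs (62.9%), 21 of 51 in clusters of 3 to 4 (41.2%) and 2 of 6 in larger ones. Outside the stretch lone genes had the highest share and larger clusters lower ones, with the histidine array alone in the largest class, while inside it pairs had the highest share and lone genes were near the largest clusters.

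Copy number was set beside marking next. Of X genes that are the one copy in the genome, 25 of 57 were marked (43.9%), against 28 of 86 on the autosomes (32.6%). With 2 to 4 copies it was 15 of 25 on X against 16 of 42 on the autosomes, and with 5 to 9 copies 21 of 40 against 19 of 45. With 10 to 19 copies 58 of 98 were marked on X (59.2%) against 49 of 100 (49.0%), and with 20 or more 34 of 56 (60.7%) against 49 of 63 (77.8%). X was therefore the higher side in every class but the last, and the shares spanned a wider range over these classes on the autosomes than on X. Split by cluster size, lone single-copy X genes had 9 of 18 marked, against 56 of 79 lone genes with further copies (70.9%). In pairs it was 11 of 18 (61.1%) against 41 of 64 (64.1%), in clusters of 3 to 4 genes 4 of 17 (23.5%) against 24 of 50, and in larger ones 1 of 4 against 7 of 26 (26.9%).

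Strand and host gene separated the X genes little. On the plus strand 76 of 136 were marked (55.9%), and on the minus strand 77 of 140 (55.0%). Inside an intron of a gene on the same strand 29 of 50 were marked (58.0%), inside one on the opposite strand 26 of 45 (57.8%), and outside genes 97 of 180 (53.9%). On the autosomes 89 of 187 intronic genes (47.6%) and 68 of 140 outside genes (48.6%) were marked. The 95 intronic X genes lay in 67 host genes. One further X gene, the glutamate gene C28G1.t1, overlapped an exon of C28G1.2 and was marked at 168, with 93.9 in replicate 1 and 75.2 in replicate 2. Its weakest identical copy, T26C11.t1, had 59.0, with 32.9 in replicate 1 and 27.8 in replicate 2.

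The strongest genes in same-strand introns were the alanine pair of him-4 and the lysine gene K11E4.t5 in pix-1, which had 175 pooled, 89.2 in replicate 1 and 85.2 in replicate 2. In opposite-strand introns they were F41D9.t3, ZK563.t1 and the tyrosine gene C02B4.t2 in nhr-17, a nuclear hormone receptor gene, with 183 pooled, 87.0 in replicate 1 and 86.2 in replicate 2. Of the host genes with 3 X tRNA genes, unc-58 had all 3 marked, T06H11.t3 among them. Both pix-1 and tbc-12 had 2 of 3 marked, and srxa-9 had 1 of 3. The degenerin gene deg-1 and the hedgehog-related gene wrt-9 had 0 of 3 each. The isoleucine gene B0344.t3 in wrt-9 had 32.1, against 165 at its identical copy C42D8.t1, outside genes, with 94.4 in replicate 1 and 74.4 in replicate 2. An aspartate copy in an intron of egl-17, a fibroblast growth factor gene, was F38G1.t2, with 173 pooled, 115 in replicate 1 and 62.0 in replicate 2. The histidine gene C06G1.t1 in C06G1.1 had 122 pooled, 67.3 in replicate 1 and 59.7 in replicate 2, and the weakest histidine copy with a ranked summit, C49F5.t1, had 66.0, with 32.7 in replicate 1 and 27.2 in replicate 2.

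Some tRNA genes have an intron of their own, which is cut out of the transcript. On X 8 of 12 such genes were marked, and 145 of the 264 without one (54.9%). On the autosomes 7 of 17 with an intron were marked, and 154 of 319 without (48.3%).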

How the data were processed

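Per the labels, ChIP-seq was done on 2 biological replicates of 1 group, with chromatin of 200 to 800 bp. The authors deposited 8 peak lists on ce11, 4 thresholded and 4 ranked by IDR, and 7 were used. Each peak carries the deposited signal value of the authors, whose scale is not stated, and the ranked lists give the authors' −log10 of the global IDR, which ends at 5. Per the deposited README texts the lists derive from alignments and a control file. The sources used here give no aligner, peak caller or duplicate handling. The deposited column 10 gave summits. Columns 15 and 19 of the ranked comparison name no replicate, so replicate values came from each replicate's own ranked list. At most X genes with both, column 15 equals the value of replicate 1 and column 19 that of replicate 2. A gene said to have no summit in a replicate can still have a value there, as Y7A5A.t2 with 19.2 in column 19.

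Genes came from Ensembl release 115, and names and isotypes from RefSeq, which matched all 276. Genes were scored by the strongest summit within 200 bp, with Python 3.11.15, pandas 2.3.3 and numpy 2.4.6. The scoring was tested on simulated data. No test was made, and depth is unknown. The members, lists and divisions were chosen with earlier results of these data known. Named genes were the 10 with the highest and 5 with the lowest conservative signal, the 5 strongest unmarked, the strongest and weakest copies of each set of 8 or more identical X genes, the 2 strongest marked genes of the 3 largest clusters, the 3 strongest in introns of each orientation and the strongest of rare isotypes. The weakest copies are those with the lowest signal among copies with a ranked summit. The sequences are from the 4 largest sets without a copy on chromosome I. Others were chosen after their values were seen. Alternatives were other peak lists, IDR limits, windows, cluster gaps and counting by distinct summit or sequence.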

Additional observations from a re-analysis of the deposited data

How the results depend on the processing

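The number of marked X genes was 62 to 99 when either replicate was left out, against 153, and the median signal was 68.0 to 79.2, against 112. These lists come from other peak calls on 1 library each. The median signal was 102 in the ranked list at an IDR of 0.1 or lower, which adds weaker peaks. The lead of X over the autosomes was 12.1 percentage points with a window of 500 bp and 15.8 counted by distinct sequence, against 7.52, and the cause was not tested. It was positive in all alternatives run. The median summit position was 18 to 18.5 bp when either replicate was left out, 20 in the combined list and at an IDR of 0.1 or lower, and 26, 23 and 22 with windows of 0, 100 and 500 bp, against 21. The clusters numbered 54 and 69 with gaps of 1000 and 10000 bp, against 67, and held 135 and 200 genes, against 179. No paired analysis was possible because there is 1 group. Depth is unknown, so a gene without a summit is not shown to be unbound, and the 2 replicates limit the precision of every signal.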
